A study of Mus musculus with 10 samples.

Results

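The genes described here encode the proteins of the cytosolic ribosome. They were taken by name, as symbols that start with Rpl or Rps and a digit together with Rplp0, Rplp1, Rplp2 and Rpsa, leaving out pseudogenes and the ribosomal S6 kinases. Of 18193 genes measured, 50 met this rule. By the start of the symbol, 26 of these were counted with the large (60S) subunit, among them the assembly gene Rpl7l1, and 23 with the small (40S) subunit. The remaining 1, Rps19bp1, encodes a protein that binds RPS19 and is itself no ribosomal protein. A gene was represented by the brightest of its probe sets that list no other gene. A further 31 ribosomal protein symbols, listed only on probe sets shared with other genes, are not among the 50. Shared probe sets are counted only in the fit over all probe sets below.

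The study asked what the MYND domain of AML1/ETO, which binds the corepressors SMRT and N-CoR, contributes to the activity of this leukaemia fusion protein. Bone marrow cells of C57BL/6 mice aged 5 to 6 weeks were enriched for lineage-negative, Sca1-positive cells, grown with IL-3, IL-6 and SCF, and transduced on 2 occasions, 24 hours apart, with a MigR1 retrovirus. The virus carried GFP alone (3 samples), AML1/ETO (3 samples) or AML1/ETO with the W692A substitution (4 samples, called W692A below). All groups therefore carry the vector with GFP, and the fusion is driven by that vector, not by its own gene. At 48 hours after the second transduction, 25000 live GFP+ Lin- Sca1+ cKit+ cells were sorted per sample, and 50 ng of RNA was amplified in successive rounds and hybridised to 1 array. The transductions were independent, but the labels do not say whether each used cells of other mice, so the p-values measure the spread between these samples.

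The ribosome is built from ribosomal RNA and proteins, most of them present once in each particle, and the cell makes these proteins in nearly equal numbers. Their messenger RNAs are abundant, long-lived and share a run of pyrimidines at the 5′ end (the 5′ TOP), through which mTOR signalling sets their translation. RNA polymerase I and III, a large set of processing and assembly factors and the transcription factor Myc belong to the same production line. Red cell precursors depend on it, since loss of 1 copy of several ribosomal protein genes causes Diamond-Blackfan anaemia.

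The start sites of the members that changed in the comparisons below, and of Rpl7a as 1 that did not, are shown here because the pyrimidine run at the start is the sequence feature these genes are known for. The 60 bases run from 30 before to 30 after the annotated start, 5′ to 3′ on the strand of the gene, from RefSeq on GRCm38.p6, and capitals mark the longest run of C and T within 20 bases of the start where it reached 5 bases. For Rpl4, Rps15 and the first start of Rps27l the marked run lies wholly before the annotated start. There it is no part of the annotated messenger RNA, so a marked run is not by itself a 5′ TOP.
Rpl4 (chr9:64173357-64173416, + strand): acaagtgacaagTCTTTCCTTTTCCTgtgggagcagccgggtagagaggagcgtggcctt
Rpl12 (chr2:32961682-32961741, + strand): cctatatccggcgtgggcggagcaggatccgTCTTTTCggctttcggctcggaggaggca
Rpl14 (chr9:120571487-120571546, + strand): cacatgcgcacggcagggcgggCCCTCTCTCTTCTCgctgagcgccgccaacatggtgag
Rplp2 (chr7:141447621-141447680, + strand): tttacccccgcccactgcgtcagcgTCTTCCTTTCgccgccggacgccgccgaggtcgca
Rps6 (chr4:86857338-86857397, - strand): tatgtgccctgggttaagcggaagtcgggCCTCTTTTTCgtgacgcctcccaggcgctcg
Rps15 (chr10:80292401-80292460, + strand): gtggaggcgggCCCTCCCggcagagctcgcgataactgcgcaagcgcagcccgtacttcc
Rps27l, first of 2 annotated starts (chr9:66946056-66946115, + strand): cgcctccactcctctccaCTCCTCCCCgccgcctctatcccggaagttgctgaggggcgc
Rps27l, second start (chr9:66946383-66946442, + strand): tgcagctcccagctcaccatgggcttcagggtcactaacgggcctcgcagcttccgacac
Rps19bp1 (chr15:80264277-80264336, - strand): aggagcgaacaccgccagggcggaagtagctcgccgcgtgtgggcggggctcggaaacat
Rpl7l1 (chr17:46782627-46782686, - strand): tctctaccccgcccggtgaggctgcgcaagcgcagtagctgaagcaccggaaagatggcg
Rpl7a (chr2:26910777-26910836, + strand): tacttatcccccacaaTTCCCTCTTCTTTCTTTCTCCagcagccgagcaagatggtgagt

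Promoter windows of 300 bases were found for 44 of the 50 members, 52 windows in all, and 5 searches were made. A run of at least 8 pyrimidines within 20 bases before or after the start lay on the strand of the gene in 38.5% of the member windows, against 16% of all 32851 windows. Such a run can lie wholly before the start, so this is no count of 5′ TOP sequences. On the other strand such a run lay in 3.85% of the member windows and 17.7% of all windows. The letters CCGGAAG, the site that ETS factors bind, stood on either strand in 40.4% of the member windows and 8.86% of all windows. CACGTG, the E-box that Myc binds, stood in 9.62% and 7.15%. TGTGGT, the core of the site that AML1 binds, stood in 7.69% of the member windows and 16.8% of all windows. These matches describe the letters only. Rpl7l1, Rps19bp1 and the second start of Rps27l had no run of 5 pyrimidines near the start, and Rpl7a had the run of 21 shown above. Members that did not pass in any comparison had long runs (20 for Rpl27a, 18 for Rpl35) as well as short ones (3 for Rpl41 and Rps3). Whether a run goes with a call was not tested.

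The values are log2 array signals, and a signal of 2.04 or less, the brightest value of the control probe sets for bacterial transcripts, is called the background bound. RNA quality controls moved with the groups. The difference of the 3′ and 5′ Gapdh controls was 4.83 to 4.99 on the GFP arrays and 3.81 to 4.17 on the W692A arrays, and on the AML1/ETO arrays it was 4.08, 4.01 and, on replicate 3, 5.04. The 18S control read 7.74 to 8.13 with GFP, 8.18 to 8.65 with AML1/ETO and 8.56 to 9 with W692A. Markers of other cells moved as well. Of 6 erythroid markers 2 were above the bound, Hemgn and Klf1 (Alas2, Epor, Hba-a1 and Rhag were not). The 6 had a summed linear signal of 176 to 238 with GFP, 13 to 18 with AML1/ETO and 17 to 20 with W692A. Most of the sum on the GFP arrays came from Hemgn alone. Hemgn differed from GFP by -5.5 with AML1/ETO and -4.64 with W692A, and Klf1 by -1.54 and -1.4. The monocyte list, with 4 of 5 above the bound, summed to 263 to 349, 818 to 1098 and 636 to 721. The megakaryocyte list, with 5 of 6 above the bound, summed to 244 to 355, 931 to 969 and 282 to 423. Its genes did not move together, with 2 higher and 4 lower in AML1/ETO against GFP. The 2 higher there were Pf4 (1.86) and Ppbp (2.24). In W692A against GFP 1 was higher and 4 were lower. The neutrophil list, with 9 of 9, summed to 673 to 925, 439 to 707 and 329 to 561, with 2 genes higher and 5 lower in each comparison against GFP. T cell and B cell markers were above the bound for 1 of 6 (Thy1) and 1 of 4 (Cd79b). They summed to 131 to 215, 44 to 51 and 60 to 73, and to 49 to 65, 44 to 74 and 40 to 54. The 10 stem and progenitor markers measured summed to 262 to 293, 1007 to 1112 and 594 to 716. Of these 9 were above the bound, while Kit, for which the cells were sorted, was not above it. They did not all move together, with 8 higher and 1 lower in AML1/ETO against GFP and 7 higher and 1 lower in W692A against GFP. The 1 lower was Flt3, at -0.96 in both comparisons. The part of these shifts in the results on ribosomal protein genes was not tested, and in bulk RNA fewer cells of a type and less RNA per cell cannot be told apart.

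Most of the 50 genes were measured well above background. The mean over the 10 arrays was above 10 for 25 members, from 5 to 10 for 17, and under 5 but above the bound for Rpl12, Rpl39 and Rpl37. Rps27 had a mean of 2.03, under the bound, and passed it on 4 of 10 arrays and in the mean of the W692A group (2.16). For Rpl39l, Rpl3l, Rps4l and Rps16 no array passed it. RPL39L and RPL3L are variants known mainly from testis and from muscle. RPS16 is a standard protein of the small subunit, and its 1 usable probe set, with a mean of 0.45, was not above background. Signals of different genes are not comparable as amounts, because each probe set binds its target with its own strength.

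**Figure D1:**
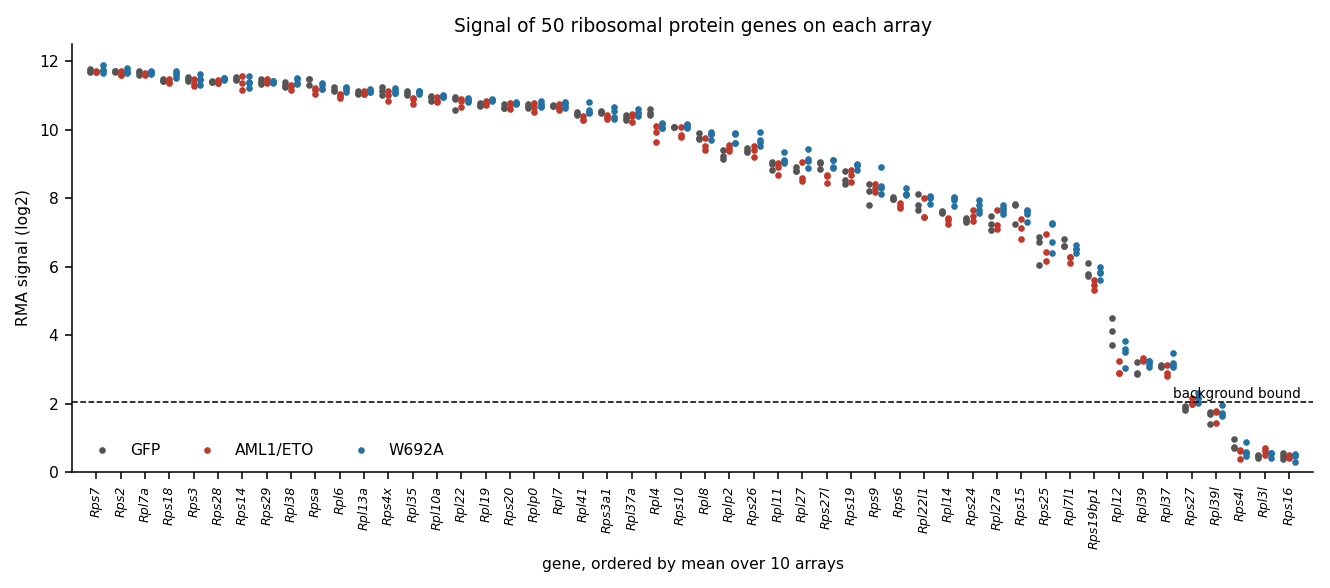
Log2 signal of each of the 50 ribosomal protein genes (x axis, ordered by mean over 10 arrays) on each array (points; GFP grey, AML1/ETO red, W692A blue), with the background bound of 2.04 as a dashed line. Points of the 3 groups lie close together for the 25 genes above 10, and 4 genes at the right lie under the bound on every array.

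Replicates agreed closely. The median standard deviation within a group was 0.104 on the log2 scale over the members, 0.0713 over the 25 with a mean above 10 and 0.173 over all genes. Rps7, of the small subunit, had the highest mean signal. It read 11.67, 11.72 and 11.77 with GFP, 11.68, 11.71 and 11.68 with AML1/ETO and 11.73, 11.88, 11.64 and 11.73 with W692A. The groups overlapped, and the 95% interval of the AML1/ETO minus GFP difference ran from -0.26 to 0.21. Averaged over the 50 members, the 3 GFP arrays lay at 8.54 to 8.57, the AML1/ETO arrays at 8.39 to 8.52 and the W692A arrays at 8.62 to 8.66. These mean levels did not overlap between groups, and they are given as a description with no test.

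Between AML1/ETO and GFP, no ribosomal protein gene was called higher and 6 were called lower, while 44 did not pass the test (limma, Benjamini-Hochberg adjusted p under 0.05 over all genes). Those called lower were Rpl12 and Rpl4 of the large subunit, Rpl7l1, which is counted with it, Rps15 and Rps27l of the small subunit, and Rps19bp1. The count amounts to 12% of the members, against 28.6% of all genes tested (12.9% higher and 15.8% lower) and 52.4% of the 8820 genes that exceeded the bound in the mean of at least 1 group. Among 104 other genes with a mean above 10, a set looked at after the values were seen, 32.7% were called, against 1 of the 25 members that bright, Rpl4. At an unadjusted p under 0.05, limma counted 1 member higher and 8 lower. With the Gapdh 3′ to 5′ difference as a covariate the 6 became 3, since Rpl4 (adjusted p = 0.0558), Rps27l (0.21) and Rps19bp1 (0.066) no longer passed.

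Rpl4 encodes a large-subunit protein that lines the tunnel through which the growing peptide leaves. Its signal was 10.60, 10.41 and 10.49 with GFP and 9.92, 9.64 and 10.10 with AML1/ETO. Every AML1/ETO array lay below every GFP array. The difference was -0.61 (SE 0.13, adjusted p = 0.00199 by limma), 1.53-fold lower, with means of 10.50 ± 0.0947 (SD, n = 3) and 9.89 ± 0.23 (SD, n = 3).

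Rpl12 encodes a protein at the base of the stalk where translation factors dock. Its signal was 4.50, 4.13 and 3.71 with GFP and 2.89, 2.89 and 3.25 with AML1/ETO. The groups did not overlap, although both lay within a few log2 units of background. The difference was -1.1 (SE 0.209, adjusted p = 0.000758 by limma), 2.15-fold lower, and no member differed more.

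Rpl7l1 encodes a protein similar to RPL7 that acts in the assembly of the large subunit. Its signal was 6.61, 6.81 and 6.60 with GFP and 6.27, 6.27 and 6.09 with AML1/ETO, again with no overlap. The difference was -0.46 (SE 0.118, adjusted p = 0.00727 by limma). Rps27l encodes a variant of RPS27 and is known as a p53 target. Its signal was 8.86, 9.05 and 9.01 with GFP and 8.44, 8.65 and 8.66 with AML1/ETO. All AML1/ETO arrays were lower, by 0.39 on average (SE 0.122, adjusted p = 0.0248 by limma).

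Rps15 encodes a protein of the head of the small subunit. It read 7.82, 7.24 and 7.79 with GFP and 7.38, 7.13 and 6.80 with AML1/ETO, so GFP replicate 2 lay inside the AML1/ETO range. The difference was -0.51 (SE 0.177, adjusted p = 0.0421 by limma). Rps19bp1 read 5.73, 5.77 and 6.10 with GFP and 5.47, 5.62 and 5.33 with AML1/ETO, without overlap, and differed by -0.39 (SE 0.141, adjusted p = 0.0484 by limma). These calls were the least firm of the 6. That of Rps15 was lost without GFP replicate 1 or 3, AML1/ETO replicate 2 or 3 or W692A replicate 2 (adjusted p from 0.0526 to 0.198), and that of Rps19bp1 without GFP replicate 2 or 3, AML1/ETO replicate 1 or 3 or W692A replicate 2 or 4 (0.0577 to 0.207). The call of Rps27l was lost without GFP replicate 2 or 3 or AML1/ETO replicate 1 (0.0677 to 0.116), and without GFP replicate 3 only 3 members were called lower.

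For members above the bound in at least 1 group mean, the data bound the size of a difference in array signal on the probe set used. Whether bright probe sets understate a change of RNA was not tested, and dimmer probe sets of a gene often gave larger differences, as given below. The 95% interval lay within 1.5-fold in either direction for 39 of these 46, against 2756 of 8820 such genes overall. Counted over all 50 members it was 43, against 59.1% of all genes, but for the 4 at background a narrow interval bounds no change of RNA. The median difference was -0.08, beside -0.02 over all genes, and 13 of 50 differences were positive, against 46.8% of all genes. The groups of arrays did not overlap for 16 members, against a share of 39.1% over all genes. Rpsa, a small-subunit protein also known as the laminin receptor, read 11.47, 11.31 and 11.46 with GFP and 11.16, 11.20 and 11.04 with AML1/ETO, with a difference of -0.28 that did not pass (adjusted p = 0.0774 by limma).

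**Figure D2:**
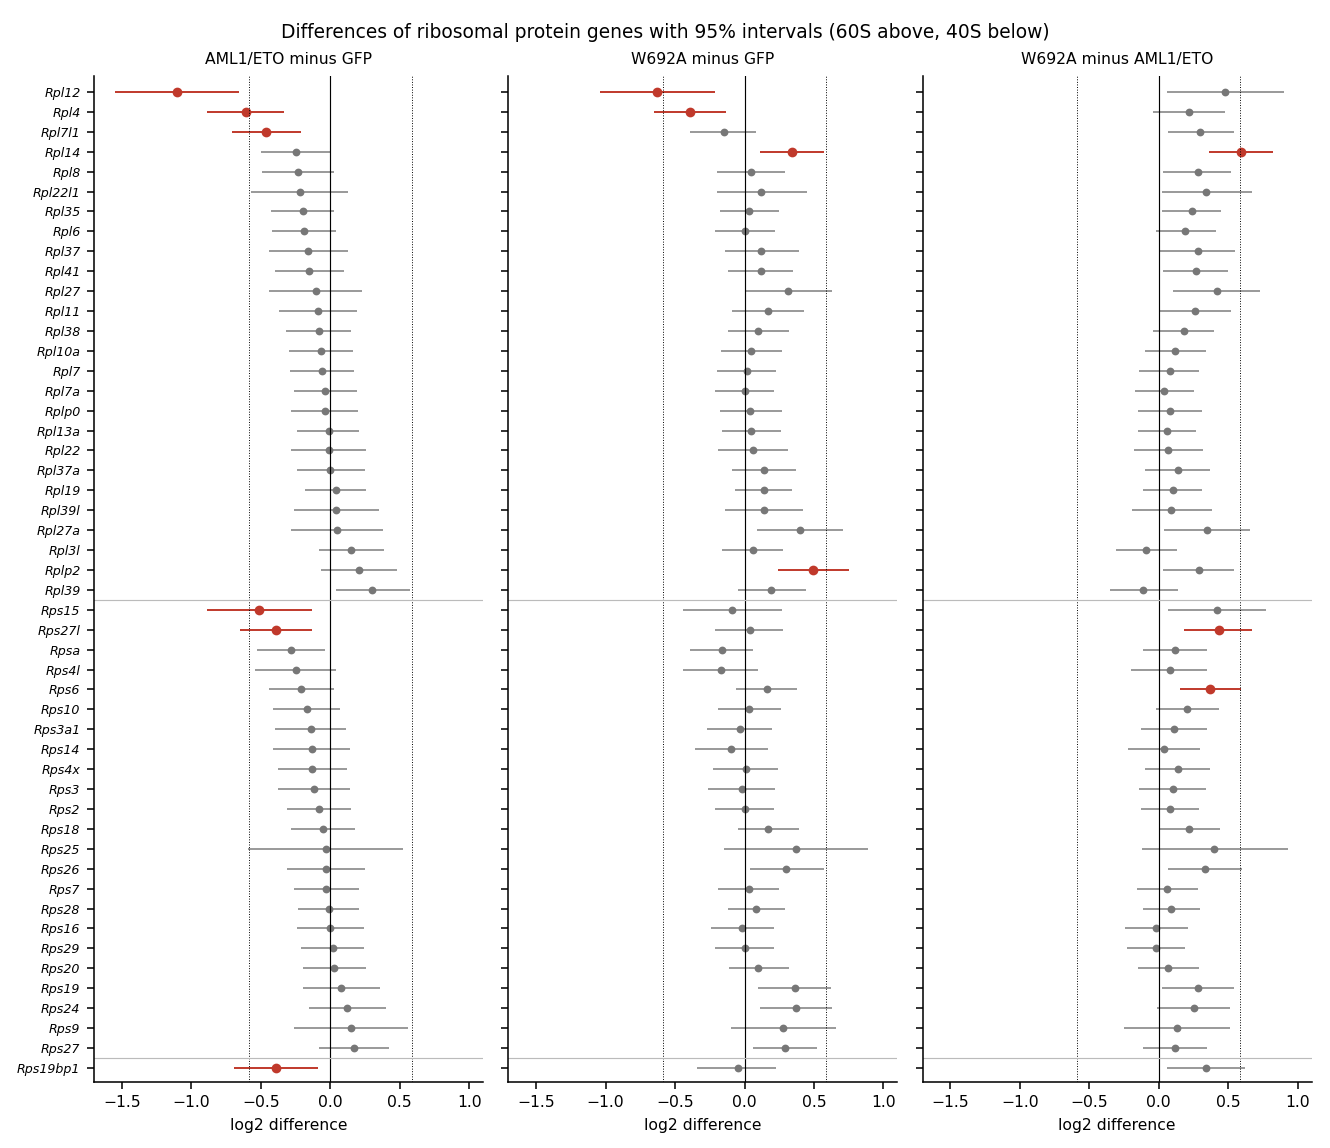
Log2 difference of each member (points) with its 95% interval (bars) in the 3 comparisons, with large-subunit genes above, small-subunit genes below and Rps19bp1 last; red marks members that passed the test and dotted lines mark 1.5-fold. Most intervals lie between the dotted lines, and Rpl12 in AML1/ETO minus GFP, at -1.1, lies farthest from 0.

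Between W692A and GFP, 2 members were called higher and 2 lower, and 46 did not pass. Rplp2 and Rpl14 were higher and Rpl4 and Rpl12 were lower, all of the large subunit. They are 15.4% of its 26 members, near the 14.5% of all genes (limma, 3 higher and 2 lower at an unadjusted p under 0.05). Limma called 0 of the 23 small-subunit members (4 higher and 0 lower at an unadjusted p under 0.05). Whether the subunits differed was not tested. The 4 calls are 8% of the members, against 14.5% of all genes (5.45% higher and 9.07% lower) and 27.4% of those that exceeded the bound. Of the 104 other bright genes 5.77% were called, against 1 of the 25 members that bright, Rpl4. The split depended on the scaling, with 4 higher and 0 lower after a further quantile normalization and 3 higher and 0 lower after subtraction of each array's median. With the Gapdh 3′ to 5′ difference as a covariate, no member was called in either direction. The Gapdh differences of the GFP and W692A arrays do not overlap, so that fit can hardly tell the construct from RNA quality.

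Rplp2 encodes the P2 protein of the acidic stalk that recruits elongation factors. It read 9.40, 9.13 and 9.23 with GFP and 9.87, 9.89, 9.60 and 9.62 with W692A. Every W692A array was above every GFP array. The difference was 0.49 (SE 0.12, adjusted p = 0.0118 by limma), 1.41-fold, and it did not pass without GFP replicate 2 (0.0604).

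Rpl14, a large-subunit protein, read 7.55, 7.63 and 7.60 with GFP and 7.93, 8, 7.77 and 8.03 with W692A. The ranges did not overlap, and the difference was 0.34 (SE 0.108, adjusted p = 0.0481 by limma). Rpl4 read 10.17, 10.20, 10.04 and 10.05 with W692A, below the GFP range of 10.41 to 10.60, with a difference of -0.39 (SE 0.122, adjusted p = 0.0456 by limma). Rpl12 read 3.82, 3.58, 3.04 and 3.51 with W692A, where replicate 1 lay above GFP replicate 3, and the difference was -0.63 (SE 0.195, adjusted p = 0.044 by limma). These 3 calls were close to the threshold. Of the 10 arrays left out in turn, all but W692A replicate 3 ended the call of Rpl14 (adjusted p from 0.0552 to 0.143). All but AML1/ETO replicates 2 and 3 ended that of Rpl4 (0.0574 to 0.17), and all but GFP replicate 3, AML1/ETO replicate 3 and W692A replicate 1 that of Rpl12 (0.0517 to 0.236).

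The median difference over the members was 0.06, beside 0.01 over all genes, and 38 of 50 differences were positive, against 51.2% of all genes. The 95% interval lay within 1.5-fold for 37 of the 46 members above the bound, against 4500 of 8820 genes, and for 41 of all 50, against 71.3% of all genes. For 12 members the groups of arrays did not overlap, against a share of 22.3% over all genes. Rps24, a small-subunit gene, differed by 0.37 without passing (adjusted p = 0.0524 by limma). Another of its probe sets, with a mean of 4.98, passed in a fit over all probe sets (0.44, adjusted p = 0.0289 by limma).

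Between W692A and AML1/ETO, 3 members were called higher in W692A and 0 lower, and 47 did not pass. This is 6% of the members, against 20.7% of all genes (9.61% higher and 11.1% lower) and 39% of those that exceeded the bound. Of the 104 other bright genes 26% were called, against 0 of the 25 members that bright (limma, 3 higher and 0 lower at an unadjusted p under 0.05). The 3 were Rpl14 of the large subunit and Rps27l and Rps6 of the small subunit. At an unadjusted p under 0.05, limma counted 18 members higher and 0 lower. The comparisons against GFP share the GFP arrays, and the comparison of the constructs shares its arrays with both.

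Rpl14 read 7.23, 7.43 and 7.36 with AML1/ETO and, as above, 7.77 to 8.03 with W692A. The groups lay well apart. The difference was 0.59 (SE 0.108, adjusted p = 0.00104 by limma), 1.5-fold, and it passed under each of the 21 alternative settings. Against GFP, Rpl14 differed by -0.25 with AML1/ETO (adjusted p = 0.135 by limma, not passed) and by 0.34 with W692A.

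Rps27l read 9.12, 8.91, 8.89 and 9.11 with W692A, above the AML1/ETO range of 8.44 to 8.66 and overlapping GFP. The difference from AML1/ETO was 0.43 (SE 0.114, adjusted p = 0.0147 by limma). Rps6 encodes the small-subunit protein that S6 kinase phosphorylates downstream of mTOR. It read 7.96, 7.98 and 8.03 with GFP, 7.72, 7.77 and 7.85 with AML1/ETO and 8.09, 8.29, 8.11 and 8.11 with W692A. The 3 groups did not overlap, with AML1/ETO lowest and W692A highest, and only the difference of 0.37 between the constructs passed (SE 0.103, adjusted p = 0.0181 by limma). With the mean of its 2 probe sets, of which the other lies under the bound (0.83), the difference of Rps6 was 0.22 and did not pass (0.193). Without AML1/ETO replicate 1 neither gene passed (adjusted p 0.0842 for Rps27l and 0.0773 for Rps6), and without AML1/ETO replicate 2 Rps6 did not (0.0584), while 5 members passed. Without W692A replicate 1, 5 passed as well.

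The median difference was 0.16, beside 0.03 over all genes. Of the 50 differences 46 were positive, against 55.4% of all genes. The 95% interval lay within 1.5-fold for 35 of the 46 members above the bound, against 3836 of 8820 genes, and for 39 of all 50, against 67.7% of all genes. The groups did not overlap for 14 members, where the share over all genes was 27.2%. After subtraction of each array's median, 11 members were called higher.

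**Figure D3:**
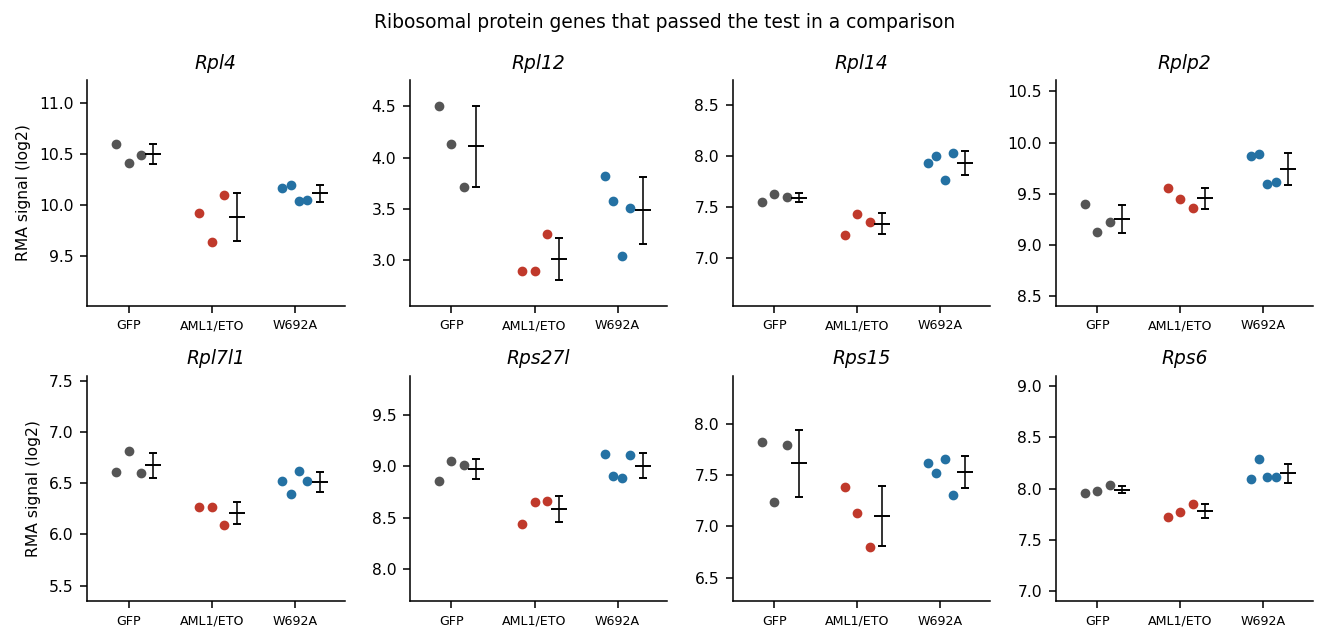
Log2 signal on each array (points) with the group mean and SD (bars) for 8 ribosomal protein genes that passed in at least 1 comparison; the y axes start above 0 and differ between panels. Rpl4 and Rpl12 are lower with both constructs than with GFP in their means, and Rpl14 is lowest with AML1/ETO (7.34) and highest with W692A (7.93).

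Several standard ribosomal proteins have a close relative that can take their place or act in their assembly. Of the variants and their partners listed, 11 were measured, and 2 were called lower in AML1/ETO against GFP, 0 in W692A against GFP (1 higher and 0 lower at an unadjusted p under 0.05 in limma) and 1 higher in W692A against AML1/ETO. These are 18.2%, 0% and 9.09% of the list, each below the share over all genes (28.6%, 14.5% and 20.7%). Rpl7l1 and Rps27l are the variants that were called. Their partners did not pass. Rpl7 read 10.70, 10.70 and 10.71 with GFP and 10.62, 10.74 and 10.57 with AML1/ETO, a difference of -0.06 (95% interval -0.29 to 0.17). Rps27 was at the edge of background. It read 1.80 to 1.92 with GFP, 1.98 to 2.15 with AML1/ETO and 2.01 to 2.30 with W692A, which does not allow a fold change to be read. Whether a variant and its partner differed in response was not tested.

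Rpl22l1, whose product acts against RPL22 in blood cell development, read 7.64, 8.13 and 7.81 with GFP, 7.45, 8.01 and 7.46 with AML1/ETO and 8.06, 7.99, 7.83 and 8.04 with W692A. The groups overlapped. Rpl22 itself read 10.57 to 10.95 with GFP, 10.65 to 10.88 with AML1/ETO and 10.80 to 10.91 with W692A, and neither gene passed in any comparison on these probe sets. Of the 2 other probe sets of Rpl22, that with a mean of 3.78 passed in the fit over all probe sets, at -0.55 in AML1/ETO against GFP (adjusted p = 0.00532 by limma) and -0.48 in W692A against GFP (0.0199), and that with a mean of 8.41 did not. Rpl39 read 2.85 to 3.21, 3.27 to 3.34 and 3.06 to 3.25 in the same order, with a difference of 0.30 between AML1/ETO and GFP that did not pass (adjusted p = 0.0883 by limma). Rps4x, the X-linked gene of a pair with Rps4l, read 11 to 11.23 with GFP and 10.84 to 11.11 with AML1/ETO and did not pass.

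In the stalk, Rplp0 anchors the P1 and P2 proteins. Rplp0 read 10.64, 10.70 and 10.75 with GFP, 10.66, 10.78 and 10.52 with AML1/ETO and 10.67, 10.84, 10.74 and 10.70 with W692A. All groups overlapped, and its W692A minus GFP difference was 0.04 (95% interval -0.18 to 0.27), beside 0.49 (0.24 to 0.75) for Rplp2. That the 2 stalk genes differed from each other was not tested, and Rplp1 was not analysed here. Fau, which encodes RPS30 fused to a ubiquitin-like protein and falls outside the naming rule, read 8.33, 8.02 and 8.41 with GFP and 8.85, 8.72, 8.79 and 8.67 with W692A. These ranges did not overlap, and the difference of 0.50 passed (adjusted p = 0.0207 by limma).

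Of the genes listed here for Diamond-Blackfan anaemia, 13 were measured, and this list includes Rps14. Limma called 0 of them in each of the 3 comparisons, with 0 at an unadjusted p under 0.05 for AML1/ETO against GFP, and 4 for W692A against GFP and for W692A against AML1/ETO, all higher. In the same order of comparisons, the shares called over all genes were 28.6%, 14.5% and 20.7%. Rps19, the gene most often mutated, read 8.41, 8.54 and 8.78 with GFP, 8.81, 8.66 and 8.47 with AML1/ETO and 8.83, 8.96, 8.96 and 8.98 with W692A. The W692A arrays lay above all others, but its difference of 0.36 from GFP did not pass (adjusted p = 0.0613 by limma). Between AML1/ETO and GFP, leaving out Rps27 at the edge of background, differences ran from -0.2 for Rpl35 to 0.12 for Rps24 on the probe set used for each gene, and the 95% interval of each stayed within 1.5-fold. Other probe sets did pass there in the fit over all probe sets. They were those of Rpl35 given below, 1 of Rps10 with a mean of 2.08 (-0.66, adjusted p = 0.0263 by limma) and 1 of Rps20 under the bound. Between the constructs, a probe set of Rps10 (0.44, adjusted p = 0.0412 by limma) and of Rps24 (0.45, 0.0167) passed, as did 2 of Rpl35. Rpl11, which binds Mdm2 when ribosome assembly is disturbed, differed by -0.09 with AML1/ETO and 0.17 with W692A, and neither passed.

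All probe sets of the members were then fitted. They include the probe set used for each gene above, so the counts below are no independent check of the calls. The 50 members had 106 probe sets, and 24 members had several. In a fit over all probe sets, limma called 0 of the 106 higher and 13 lower in AML1/ETO against GFP (12.3%, against 19.1% of all probe sets, and 1 higher and 19 lower at an unadjusted p under 0.05). For Rpl7l1 and for Rps27l, 3 of 3 probe sets were lower. For Rpl35 2 of 6 were lower, at -0.43 (adjusted p = 0.0242 by limma) and -0.33 (0.0412), while the probe set used for the gene, at -0.2, did not pass. For Rpl22 1 of 3 was lower. For Rps15 0 of 2 passed in that fit, and the call of Rps19bp1 was lost (adjusted p = 0.0633 by limma). In W692A against GFP 2 probe sets were higher and 1 lower (2.83%, against 8.89% of all). Rplp2 kept its call there (0.0158), and Rpl4 (0.0594), Rpl12 (0.0629) and Rpl14 (0.0598) lost theirs. These 4 genes have 1 probe set each. In W692A against AML1/ETO 11 probe sets were higher and 0 lower in limma (10.4%, against 13.4% of all, and 38 higher and 0 lower unadjusted), among them 3 of 3 for Rps27l, 2 of 6 for Rpl35 and 1 of 2 for Rps6. A further 110 probe sets list a ribosomal protein gene beside other genes. Of these, 1 was higher and 3 lower in AML1/ETO against GFP (3.64%, against 19.1% of all). With W692A against GFP, 10 were higher and 0 lower in limma (9.09%, against 8.89%, and 27 higher and 1 lower unadjusted). Between the constructs, 11 were higher and 1 lower (10.9%, against 13.4%). Their median differences were -0.06, 0.14 and 0.18. In 20 genes with a brighter and a dimmer probe set above the bound, a comparison chosen after the values were seen, the dimmer one gave the larger difference in size for 13, 15 and 15 genes in the 3 comparisons. The median size for the brighter and the dimmer was 0.11 and 0.12 in AML1/ETO against GFP, 0.08 and 0.18 in W692A against GFP and 0.14 and 0.21 between the constructs.

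Ribosomal proteins are assembled into ribosomes by a larger set of factors, whose genes are given here as lists. Over all genes tested, 15.8% were called lower and 12.9% higher in AML1/ETO against GFP. In AML1/ETO against GFP, 30 of 33 genes of rRNA modification and processing were called lower and 0 higher in limma (0 at an unadjusted p under 0.05), with a median difference of -0.95. Nhp2, of the box H/ACA particle that guides pseudouridylation, and Wdr75, of the small-subunit processome, both fell by 1.48 on the log2 scale (adjusted p = 3.56e-05 and 4.61e-06 by limma). Of 36 genes of 60S assembly, 29 were lower and 2 higher, with a median of -0.87. Rrp15 read 6.90, 6.55 and 6.83 with GFP, 5.12, 5.05 and 5.12 with AML1/ETO and 6.46, 6.41, 6.44 and 6.37 with W692A. It fell by 1.67 with AML1/ETO (adjusted p = 5.99e-08 by limma), without overlap. Gnl3, the nucleolar GTPase nucleostemin, fell by 1.63 (adjusted p = 4.48e-07 by limma). The 2 that rose were Sbds (0.45, adjusted p = 0.0288 by limma), which removes Eif6 from the new 60S subunit, and Nsa2 (0.39, adjusted p = 0.049). Of 22 genes of 40S assembly, 15 were lower and 1 higher, with a median of -0.64. Ltv1 fell by 1.55 and Tsr1 by 1.13, both late 40S assembly factors, and the kinase gene Riok3 rose by 0.94.

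RNA polymerase I and III had 13 of 22 genes lower and 0 higher (limma, 0 higher at an unadjusted p under 0.05), with a median of -0.45. The share called was 59.1%, against 28.6% of all genes. Polr1b, the second largest subunit of polymerase I, fell by 1.34. Polr3g read 4.21, 4.21 and 4.01 with GFP and 1.88, 1.71 and 2.17 with AML1/ETO, where 2 of 3 arrays were under the bound. Translation initiation had 14 of 23 genes lower and 1 higher (65.2% called). Eif2b3 fell by 1.46 and Eif2b1 by 1.19, and Eif2b2, another subunit of the same exchange factor, rose by 0.82. Other genes with a 5′ TOP, which share the pyrimidine start with the ribosomal protein genes, had 5 of 22 lower and 1 higher, with a median of -0.10. Their share called, 27.3%, was near that of all genes. Eif4b fell by 1.16 and Eif2s3x by 0.70, and Vim, the filament protein vimentin, rose by 1.38.

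**Figure D4:**
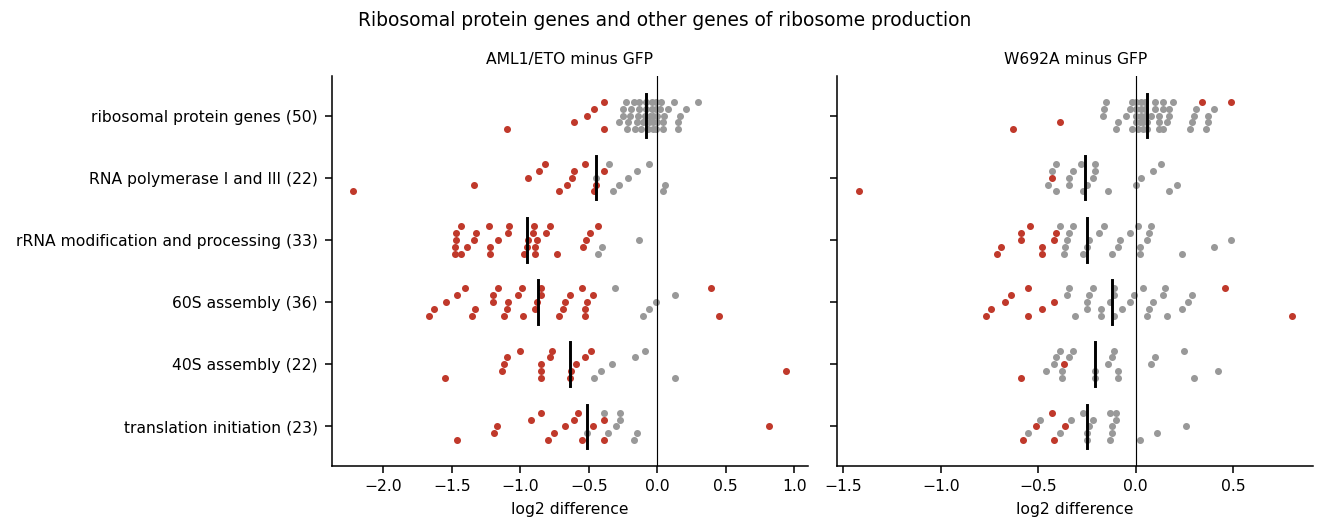
Log2 difference of each measured gene (points, red where it passed the test) in 6 gene lists, with the number of genes in brackets and the list median as a bar, for AML1/ETO minus GFP and W692A minus GFP; the x axes differ. The median of ribosomal protein genes lies at -0.08 with AML1/ETO, and that of rRNA modification and processing at -0.95.

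With W692A against GFP, the share of genes called was smaller over all genes (14.5% against 28.6%) and in these lists. Those lower numbered 9 of 33 for rRNA modification and processing (0 higher, 2 at an unadjusted p under 0.05), 8 of 36 for 60S assembly (2 higher), 2 of 22 for 40S assembly (0 higher, 1 unadjusted), 2 of 22 for the polymerases (0 higher, 0 unadjusted) and 5 of 23 for initiation (0 higher, 0 unadjusted), all by limma. Wdr75 fell by 0.71 and Noc3l, of 60S assembly, by 0.77, and Nsa2 rose by 0.80. Between W692A and AML1/ETO, tested directly, 29 of 33 genes of rRNA modification and processing and 27 of 36 of 60S assembly were higher in W692A and 0 were lower in limma (0 of each at an unadjusted p under 0.05). Over all genes, 9.61% were called higher and 11.1% lower in that comparison. Nop58, a core protein of box C/D particles, read 5.39, 5.63 and 5.56 with GFP, 4.58, 4.16 and 4.59 with AML1/ETO and 6.26, 5.91, 5.52 and 6.00 with W692A, and rose by 1.48 between the constructs (adjusted p = 1.23e-05 by limma). Of the 91 genes of processing and assembly together, 74 were lower in AML1/ETO against GFP and 19 in W692A against GFP. The second count fell to 1 with the Gapdh difference as a covariate, which in that comparison can hardly be told apart from the construct. Whether the lists differed from the ribosomal protein genes beyond these counts and medians was not tested.

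The mitochondrial ribosomal proteins, which share names and no particle with the cytosolic ones, had 41 of 76 genes lower and 1 higher in AML1/ETO against GFP, with a median of -0.42. The share called was 55.3%, against 28.6% of all genes. In W692A against AML1/ETO 48 of 76 were higher and 0 lower (0 lower at an unadjusted p under 0.05 in limma). This is 63.2%, against 20.7% of all genes.

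Regulators moved in both directions. Myc read 6.68, 7.07 and 6.98 with GFP, 5.33, 5.89 and 5.83 with AML1/ETO and 6.13, 6.13, 5.87 and 6.01 with W692A. Both constructs lay under GFP on every array, and Myc fell by 1.23 with AML1/ETO (adjusted p = 2.46e-05 by limma) and by 0.87 with W692A (0.000947). Of the 10 genes of Myc and its partners, 3 were higher and 2 lower in AML1/ETO against GFP. Among those higher were Mxi1 (1.37) and Mxd4 (1.05), whose products compete with Myc for Max. Beside Myc, Mycn was lower, by 0.56 (adjusted p = 0.00426 by limma). The share called was 50%, against 28.6% of all genes. In W692A against GFP only Myc was called, 10% of the list against 14.5% of all genes. Of 15 genes of mTOR and translation control, 2 were higher and 2 lower (26.7%, near the share over all genes). Larp1, which binds the 5′ TOP, fell by 0.47 with AML1/ETO (adjusted p = 0.0153 by limma), and Rptor, a subunit of the mTOR complex that acts on these messenger RNAs, rose by 0.60 (0.0335). Of 8 genes of the p53 response to ribosome stress, Mdm2 rose by 0.65 while Ccng1 fell by 0.83 and Phlda3 by 0.75 with AML1/ETO (37.5% of the list called). With W692A the same 3 genes passed, Mdm2 at 0.61, Ccng1 at -1.01 and Phlda3 at -0.64 (37.5% of the list, against 14.5% of all genes).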

How the data were processed

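The authors deposited log2 intensities from RMA, per the submitters' processing notes, which name no version. The base was inferred, since the highest value, 12.77, read as a natural logarithm gives 350219, more than the 65535 of a 16-bit scanner. RMA gives all arrays 1 distribution, which hides differences in total RNA, and the number of arrays limits the precision. Of 45101 probe sets, 64 controls and 932 with several genes were left out of the fit of genes. The fit over all probe sets left out the controls only. Symbols were updated by gene identifier for 34741 probe sets, 204 kept the platform's name, and the brightest probe set stood for a gene.

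Groups came from the sample labels. Genes were tested with limma 3.58.1 (R 4.3.3; lmFit and eBayes, 1 fit of 3 groups, 7 residual and 7.53 prior degrees of freedom), checked on simulated data, with p-values adjusted over 18193 genes at 0.05. The members and gene lists were chosen with earlier results of these data known. The background bound, the bright non-members, the comparison of probe sets, the sequence searches and 2 alternatives (members above the bound only, and without Rps19bp1) were chosen after seeing the data. Named were called members by size without overlap (up to 8 rises and 8 falls), variants, stalk and Diamond-Blackfan anaemia genes, and up to 2 rises and 2 falls per other list. Rps15, Rpl12 with W692A, Rpsa, Rpl7a, Rpl37 and Rps16 were named after their values were seen. Alternatives covered filters, probe sets, scaling, variance priors, array weights, the samples fitted, a replicate block, Gapdh and each array left out.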

Additional observations from a re-analysis of the deposited data

Results flagged for a closer look

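The 4 W692A arrays of 31 members were searched for an array far from the others of its group, and 3 were found. Replicate 1 read 0.41 for Rpl3l, under the background bound, and 8.83 for Rps19, below the 8.96 to 8.98 of the other W692A arrays. Replicate 2 read 8.29 for Rps6, above the 8.09 to 8.11 of the others. A search of this kind finds about 1 in 20 groups by chance.

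The constructs differed directly from each other for 3 members. The W692A minus AML1/ETO difference was 0.59 for Rpl14, 0.43 for Rps27l and 0.37 for Rps6, each past the adjusted threshold in limma, and every W692A array lay above every AML1/ETO array.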

How the results depend on the processing

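No result changed direction under any of the alternatives. In AML1/ETO against GFP, the members called lower numbered 3 with the Gapdh difference as a covariate and 2 with a 1.5-fold minimum. Its median moved to -0.12 with that covariate and to -0.13 after subtraction of each array's median. In W692A against GFP, members higher and lower numbered 4 and 0 after a further quantile normalization, 0 and 0 with the Gapdh covariate, 1 and 1 in a fit of the 2 groups alone, and 0 and 1 with a 1.5-fold minimum. Subtraction of each array's median left 0 lower, and a trended and robust prior gave 4 higher, while 1 was higher without probe sets ending in _x_at or _s_at. In W692A against AML1/ETO, members higher numbered 7 when probe sets of a gene were averaged, 5 without those probe sets (median 0.22), 6 after quantile normalization, 11 after subtraction of the median (median 0.23), 9 with the trended and robust prior and 1 with the 1.5-fold minimum. Replicate numbers name samples and do not pair them (correlations of same-numbered deviations from -0.12 to 0.44). With a replicate block, 0 members were lower in W692A against GFP.

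With each array left out in turn, AML1/ETO against GFP gave 0 to 1 higher, 3 to 6 lower and a median of -0.11 to -0.04. W692A against GFP gave 0 to 3 higher, 0 to 2 lower and a median of 0.05 to 0.08, with 0 lower without GFP replicate 1 or 2, AML1/ETO replicate 1 or W692A replicate 2, 3 or 4 and 1 lower without GFP replicate 3, AML1/ETO replicate 2 or W692A replicate 1. It gave 0 higher without GFP replicate 2 and 1 higher without GFP replicate 1, any AML1/ETO replicate or W692A replicate 1, 2 or 4. W692A against AML1/ETO gave 2 to 5 higher, 0 lower and a median of 0.15 to 0.19. Of the 21 alternatives, the call of Rpl12 in AML1/ETO against GFP and that of Rpl14 between the constructs were kept in 21, and that of Rpl4 with AML1/ETO in 20 (adjusted p = 0.0558 by limma with the Gapdh covariate). The causes were not tested.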
